A study of Mus musculus with 11 samples.

Results

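The mitochondrial ribosomal proteins are the nuclear-encoded proteins of the ribosome that works inside mitochondria. They were taken here as the protein-coding genes of the deposited gene tables whose mouse symbol begins with Mrpl or Mrps followed by a digit. The pattern matched 83 symbols, 5 of which were not protein-coding genes and were left out, and the remaining 78 genes (49 Mrpl and 29 Mrps symbols) were followed, of 55487 genes in all. The symbols chose the genes, and no measured value did. Of the 78, 77 passed the filter on low counts and were tested among 10505 genes, and Mrpl23 alone fell under it.

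RNA of the gastrocnemius (a calf muscle) in 11 samples was read by QuantSeq, a 3' tag assay that counts reads near the 3' ends of polyadenylated transcripts. The groups were 4 samples of wild-type mice, 3 of mice with an inducible Raptor knockout and 4 of mice in which both Raptor and mTOR were deleted (hereafter the double knockout). Raptor, from the gene Rptor, is needed for mTOR complex 1, whereas the kinase mTOR, from Mtor, works in both mTOR complexes. The design names wild type against double knockout and Raptor knockout against double knockout as the contrasts of interest, and Raptor knockout against wild type was added here. The knockout mice carried floxed Raptor alleles, and the double knockout floxed mTOR alleles too, with a Cre recombinase fused to a mutated oestrogen receptor domain under the human skeletal actin promoter. That promoter is active in muscle fibres, so other cells of the muscle keep the genes. Mice of every group, wild type included, were given tamoxifen from 3 months of age (7 weeks of medicated chow), and muscles were taken 7 months after its start. Whether the wild-type mice carried the Cre, and their sex and strain, is not given in the labels.

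Mitochondrial DNA encodes a small set of proteins of the respiratory chain and of ATP synthase, and mitochondrial ribosomes translate their transcripts at the inner membrane. The ribosome has a small subunit, which binds the mRNA and decodes it, and a large subunit, which forms the peptide bonds. Its RNAs come from mitochondrial DNA, whereas its proteins are made in the cytosol and imported. Some of these proteins descend from those of bacterial ribosomes, and others were added in mitochondria and have no bacterial counterpart. Muscle fibres are rich in mitochondria, and loss of function in genes of this machinery is known from human disorders of the respiratory chain that affect muscle, heart or brain.

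Libraries held 2791339 to 6328533 counts, and 9841 to 19891 of these in each wild-type library fell on the members. A level in CPM is a count relative to library size after TMM scaling in edgeR, and means carry the SD over libraries (wild type n = 4, Raptor knockout n = 3, double knockout n = 4). A gene is said to have risen or fallen where the edgeR quasi-likelihood test gave a Benjamini-Hochberg adjusted p under 0.05 over all tested genes. Rptor fell by 1.11 on the log2 scale (SE 0.23, edgeR adjusted p = 0.00282) in the Raptor knockout and by 1.02 (SE 0.21, edgeR adjusted p = 0.00156) in the double knockout, while Mtor counts rose in the double knockout by 0.78 (SE 0.19, edgeR adjusted p = 0.00534). In the deposited TPM the difference was larger, from 3.27 ± 1.26 in wild type to 32.96 ± 4.97 in the double knockout (limma log2 fold change 3.03 with a pseudocount of 1, 3.36 with 0.1). The cause of the gap between counts and TPM was not tested. Where the loxP sites lie was not stated, and 3' tags do not check the loss of the floxed parts. Wild-type replicate 4 stood apart for the members. It held the highest wild-type level in 55 and the lowest in 14 of the 77 tested members, which makes it the highest in 71.4% of members against 35.3% of all tested genes. Without it, the median coefficient of variation of the members over wild-type libraries was 9.71%, against 18.1% with it. For all tested genes that median was 15.5% without it and 22.8% with it. Replicate 4 was the highest or lowest in 89.6% of members and in 69.5% of all tested genes, so it stood apart beyond the members too. Xist, an RNA made from the inactive X chromosome of females, reached 95.6 to 208 CPM in 4 libraries (double-knockout replicates 1, 2 and 3, wild-type replicate 3) and stayed at 0 to 0.291 CPM in the other 7 libraries, so Xist was not balanced over genotypes and no Raptor-knockout library had it. By the names of the deposited counts, double-knockout replicates 3 and 4 belong to a smaller run and the other 9 libraries to a larger one. The sample labels themselves name no batch. Of 6 muscle fibre markers 2 rose and 3 fell in each knockout, and their sum ranged from 75550 to 92030 CPM over all libraries. Among other cell types, markers of macrophages, fibro-adipogenic cells and tenocytes were called most often. In summed level, the 7 macrophage markers stood at 61.9 to 88.1 CPM in wild type, 90.4 to 171.5 in the Raptor knockout and 118 to 155 in the double knockout. The 5 fibro-adipogenic markers stood at 558 to 873, 896 to 1011 and 1002 to 1172 CPM, and the 4 tenocyte markers at 93.0 to 121, 181 to 242 and 190.4 to 272 CPM. In the double knockout 5 of 7, 3 of 5 and 3 of 4 of these markers passed the test, and in the Raptor knockout 4, 3 and 3. Of 4 smooth muscle and pericyte markers 1 rose in each knockout (sums of 172 to 207 CPM in wild type, 215 to 248.5 in the Raptor knockout and 197.5 to 267 in the double knockout). The sum of the 4 satellite cell markers, of which 1 was tested and not called, was 12.9 to 14.04, 15.97 to 22.3 and 14.2 to 17.5 CPM, above wild type in both knockouts. Of 4 Schwann cell markers 1 rose in the double knockout, and of 3 erythroid genes 1 rose in the Raptor knockout. The part of this shift in the results below was not tested, and in whole muscle fewer fibres and less RNA per fibre cannot be told apart.

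Levels were compared between genes as TPM, a unit that also divides by transcript length. In wild type the tested members spanned 2.69 to 722 TPM, with a median of 31.7 TPM. Mrps21, a small-subunit protein with a bacterial counterpart, was at the top with 722 ± 101 TPM (SD, n = 4). Mrpl42, a large-subunit protein found only in mitochondria, followed at 313 ± 11.1 TPM and Mrpl33, a large-subunit protein with a bacterial counterpart, at 264 ± 9.19 TPM, and these neighbours differed by more than their SDs. At the bottom stood Mrpl19 (2.69 ± 0.474 TPM), Mrpl1 (3.797 ± 0.977 TPM) and Mrps27 (4.400 ± 0.921 TPM), 2 large-subunit proteins and a small-subunit one. Neighbours in this order overlapped within their SDs, while Mrpl19 and Mrps27 did not. Counts of a 3' tag assay need not grow with transcript length, so the order depends on the unit. In CPM the lowest were Mrps27 (8.98 ± 2.600) and Mrps2 (11.9 ± 2.87), below Mrpl1 (14.8 ± 3.18) and Mrpl19 (15.7 ± 3.44), and Mrps21 was the highest in both units. The least counted tested member, Mrps27, still had 408 counts over the 11 libraries.

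Most mitochondrial ribosomal protein transcripts changed little when Raptor, or Raptor and mTOR, had been lost from muscle fibres for months. In the double knockout against wild type, 5 of the 77 tested members rose (Mrps2, Mrpl33, Mrpl17, Mrpl30 and Mrpl41) and 4 fell (Mrpl36, Mrps28, Mrps31 and Mrpl34). That is 11.7% of the members, beside 26.7% of all tested genes called by the same rule (13% higher and 13.7% lower). In the Raptor knockout 5 rose (Mrps2, Mrpl33, Mrpl39, Mrpl44 and Mrpl9) and Mrpl36 fell, which is 7.79% of the members beside 18.2% of all tested genes (8.73% higher and 9.43% lower). The members' median log2 fold change was 0.02 in the double knockout and 0.08 in the Raptor knockout, and that of all tested genes was 0.02 and 0.00. Without regard to sign, their median change was 0.17 on the log2 scale in the double knockout and 0.18 in the Raptor knockout, where all tested genes had 0.38 and 0.36. The log2 fold change was within 0.5 of 0 for 71 of 77 members in the double knockout (92.2%, all tested genes 61.2%) and for 69 in the Raptor knockout (89.6%, all tested genes 64.2%). The range of 2 SE around it stayed inside a 2-fold change for 73 members in the double knockout and for 71 in the Raptor knockout. At an unadjusted p under 0.05 there were 20 of 77 members in the double knockout, beside 37.9% of all tested genes. In the Raptor knockout there were 14 of 77, beside 31.7%. Both comparisons used the same 4 wild-type libraries.

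**Figure D1:**
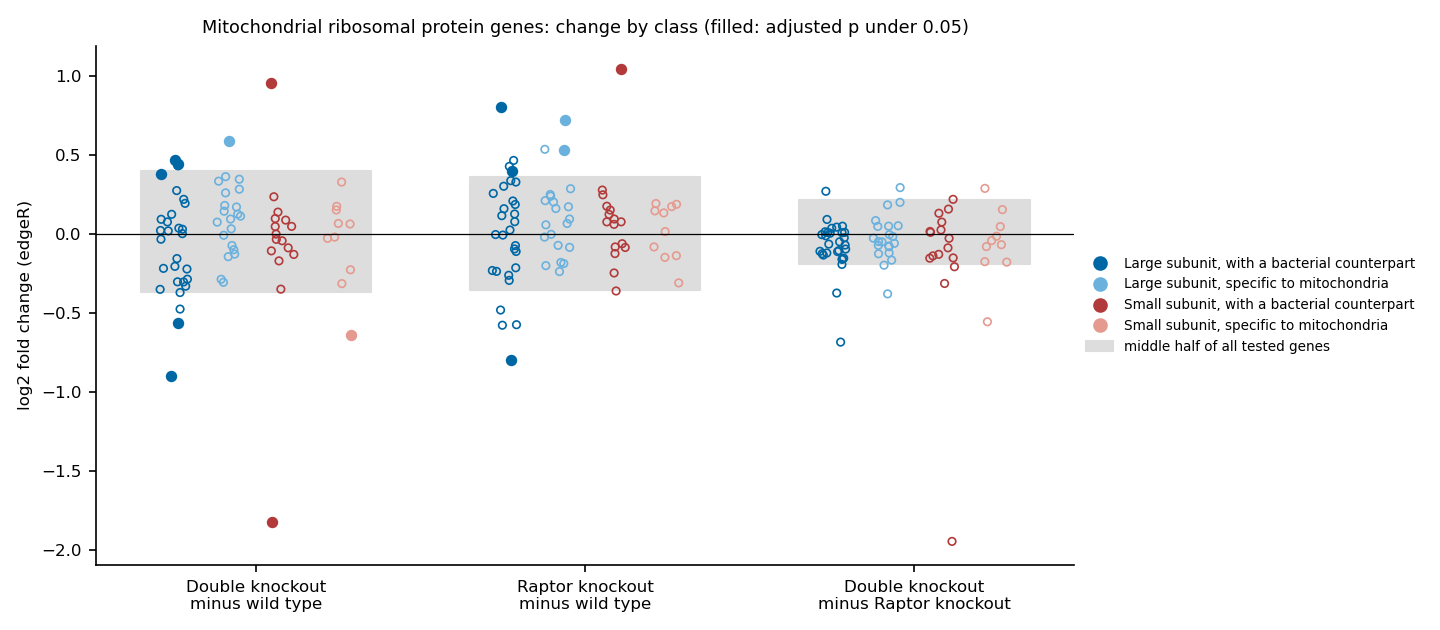
Log2 fold change (edgeR) of each tested mitochondrial ribosomal protein gene in 3 comparisons, coloured by subunit and ancestry. Filled points passed the adjusted p threshold, the grey band spans the first to the third quartile of all tested genes, and Mrps36 is not drawn. Most points lie within the band, Mrps2 lies near 1 in both comparisons with wild type, and Mrps28 lies near -2 in both comparisons of the double knockout.

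The wild-type library that stood apart bore on these counts. Without wild-type replicate 4, 10 members rose and 3 fell in the double knockout (16.9%, beside 32% of all tested genes), and 12 rose and 2 fell in the Raptor knockout (18.2%, beside 23.1%). In that setting 1203 of 10443 tested genes rose in the Raptor knockout, a smaller share than the 12 of 77 members. In the double knockout 1655 rose, a larger share than the 10 of 77 members. Of the calls made with it, 8 of 9 in the double knockout and 6 of 6 in the Raptor knockout stood without it, and the one lost was that of Mrpl34. The members' median log2 fold change was then 0.11 in the double knockout and 0.16 in the Raptor knockout. Other libraries moved the counts too. In the Raptor knockout 1 member rose without Raptor-knockout replicate 1, and 3 rose without Raptor-knockout replicate 3 or wild-type replicate 1 or 3. The share of all tested genes called fell as well, to 10.5%, 11.3%, 14.1% and 17%. In the double knockout 2 rose without wild-type replicate 3 and 3 without double-knockout replicate 1, 2 or 4 or wild-type replicate 2, and 2 fell without wild-type replicate 2, Raptor-knockout replicate 1 or 3, or double-knockout replicate 1, 2 or 3. In these settings 20.8% to 25.7% of all tested genes were called. The 7 libraries without Xist hold 1 double-knockout library, whose spread is then taken from the other groups. A double-knockout call lost in that setting therefore says little. The Raptor-knockout comparison with wild type lost wild-type replicate 3 alone in that setting. Its calls of Mrpl33, Mrpl36, Mrpl39 and Mrpl9 ended (log2 fold changes 0.37, -0.86, 0.49 and 0.71). There, no member was called in the double knockout beside 4.22% of all tested genes, and Mrps2 and Mrpl44 were called in the Raptor knockout beside 11.3%. With the smaller run left out, Mrps2, Mrpl33 and Mrpl36 kept their calls in the double knockout (3.9%, beside 17.8% of all tested genes). Scaling to library totals moved the median of all genes by 0.23 in the double knockout and 0.20 in the Raptor knockout, and counted 18 higher and 2 lower members (26%, beside 31.1% of all tested genes) and 14 higher and 1 lower (19.5%, beside 21%). Rises alone were then 2421 and 1638 of 10505 tested genes, shares no larger than those of the members.

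By structural class, calls were few in each, and every class share was below the 26.7% and 18.2% of all tested genes. Of 29 large-subunit proteins with a bacterial counterpart, 3 rose and 2 fell in the double knockout and 2 rose and 1 fell in the Raptor knockout (17.2% and 10.3%). Of the 21 large-subunit proteins specific to mitochondria, 1 rose in the double knockout and 2 in the Raptor knockout, and none fell (4.76% and 9.52%). Of the 16 small-subunit proteins with a bacterial counterpart, 1 rose and 1 fell in the double knockout and 1 rose in the Raptor knockout (12.5% and 6.25%). Of the 10 small-subunit proteins specific to mitochondria, 1 fell in the double knockout and none was called in the Raptor knockout. The class medians lay between -0.02 and 0.11 in the double knockout and between 0.03 and 0.10 in the Raptor knockout. Differences between classes were not tested. Mrps18a and Mrps30, small-subunit by name, are built into the large subunit and were counted there, and Mrps36, which is a component of a mitochondrial dehydrogenase complex, was put in no class.

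Among small-subunit genes, Mrps2 showed the largest rise of any member in both comparisons with wild type. Mrps2 (ENSMUSG00000035772, chromosome 2, 28468066 to 28471178, plus strand, GRCm38) encodes a protein of the small subunit that has a bacterial counterpart. It stood at 8.97, 11.8, 10.9 and 15.8 CPM in the wild-type libraries, at 22.6, 24.4 and 26.4 in those lacking Raptor alone and at 17.7, 25.6, 23.9 and 24.7 in the double knockout. Every knockout library lay above every wild-type library. Its level rose 2.06-fold in the Raptor knockout (log2 fold change 1.04, SE 0.20, edgeR adjusted p = 0.00186) and 1.94-fold in the double knockout (log2 fold change 0.96, SE 0.19, edgeR adjusted p = 0.0014). Double knockout against Raptor knockout gave a log2 fold change of -0.09 (SE 0.20, edgeR adjusted p = 0.936). The call stood under 22 of 22 alternative settings in the Raptor knockout and 21 of 22 in the double knockout, the exception being the Xist-free libraries, of which 1 is a double knockout (log2 fold change 0.99, edgeR adjusted p = 0.128).

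Mrps28 (ENSMUSG00000040269, chromosome 3, 8802146 to 8923918, minus strand), another small-subunit protein with a bacterial counterpart, showed the largest fall, and only the double-knockout libraries were low as a group. It stood at 3.16, 12.9, 5.04 and 6.97 CPM in the double knockout, at 30.8, 20.3 and 31.1 in those lacking Raptor alone and at 25.1, 33.97, 33.1 and 8.79 in the wild-type mice. Wild-type replicate 4, at 8.79 CPM, lay inside the double-knockout range, and the other 3 wild-type libraries lay above it. The level in the double knockout was 3.52-fold lower than in wild type (log2 fold change -1.82, SE 0.46, edgeR adjusted p = 0.0128), and without wild-type replicate 4 the log2 fold change was -2.10 (edgeR adjusted p = 0.000649). The call ended without the smaller run (log2 fold change -1.61, edgeR adjusted p = 0.106). In the Raptor knockout the log2 fold change was 0.13 (SE 0.44, edgeR adjusted p = 0.881). Against the Raptor knockout, every double-knockout library lay below every Raptor-knockout library, with a log2 fold change of -1.94 (SE 0.48), but edgeR's adjusted p was 0.195.

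Mrps31 (ENSMUSG00000031533, chromosome 8, 22411361 to 22429665, plus strand), a small-subunit protein specific to mitochondria, was also lowest in the double knockout, by a smaller margin. Its levels were 12.6, 15.6, 14.05 and 19.8 CPM in the double knockout, 23.3, 22.2 and 22.9 in those lacking Raptor alone and 26.2, 30.4, 26.6 and 13.8 in the wild-type mice. Wild-type replicate 4 was again the lowest of its group and lay within the double-knockout range. Mrps31 was 1.55-fold lower in the double knockout than in wild type (log2 fold change -0.63, SE 0.22, edgeR adjusted p = 0.0417). This call was close to the threshold. It ended when any 1 of 8 libraries was left out (wild-type replicate 1, 2 or 3, Raptor-knockout replicate 1 or 3, double-knockout replicate 1, 2 or 3), with edgeR adjusted p between 0.0511 and 0.134, and stood under 6 of 22 alternatives.

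Of the large-subunit genes, Mrpl33 (ENSMUSG00000106918, chromosome 5, 31596935 to 31664384, plus strand), whose protein has a bacterial counterpart, rose in both knockouts with little spread in wild type. The wild-type libraries stood at 92.97, 96.2, 95.2 and 96.3 CPM, the Raptor-knockout libraries at 131, 117 and 128 and the double-knockout libraries at 138, 139.5, 119 and 122. The groups did not overlap with wild type. The rise was 1.32-fold in the Raptor knockout (log2 fold change 0.40, SE 0.12, edgeR adjusted p = 0.0309) and 1.36-fold in the double knockout (log2 fold change 0.44, SE 0.11, edgeR adjusted p = 0.00811). In the Raptor knockout the call ended without wild-type replicate 1 or 3 or Raptor-knockout replicate 1 or 3 (log2 fold change 0.36 to 0.41, edgeR adjusted p 0.0548 to 0.133). It also ended in the libraries without Xist (log2 fold change 0.37).

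Mrpl17, Mrpl30 and Mrpl41 passed the test in the double knockout and stood at a similar level in the Raptor knockout. Mrpl17 (ENSMUSG00000030879, chromosome 7, 105803206 to 105811099, minus strand), a protein with a bacterial counterpart, was at 40.7, 44.3, 38.7 and 52.3 CPM in the wild-type mice, 59.5, 54.95 and 63.1 in those lacking Raptor alone and 65.1, 61.7, 54.6 and 61.6 in the double knockout. Both knockouts lay above wild type without overlap, with a log2 fold change of 0.47 (SE 0.14, edgeR adjusted p = 0.0182) in the double and 0.43 (SE 0.15, edgeR adjusted p = 0.0521) in the Raptor knockout. Mrpl41 (ENSMUSG00000036850, chromosome 2, 24974117 to 24975098, minus strand), a protein specific to mitochondria, was at 18.4, 17.5, 13.7 and 23.9 CPM in the wild-type mice, 31.3, 25.99 and 22.3 in those lacking Raptor alone and 24.97, 30.2, 24.1 and 30.8 in the double knockout. It rose 1.502-fold in the double knockout (log2 fold change 0.59, SE 0.19, edgeR adjusted p = 0.0272), where no library overlapped with wild type, and its log2 fold change in the Raptor knockout was 0.54 (SE 0.20, edgeR adjusted p = 0.0719). Mrpl30 (ENSMUSG00000026087, chromosome 1, 37890477 to 37898535, plus strand), with a bacterial counterpart, was at 80.3, 78.7, 76.2 and 107 CPM in the wild-type mice, 114, 101 and 108 in those lacking Raptor alone and 108, 121, 102 and 114 in the double knockout. Wild-type replicate 4 alone reached the knockout range. Its log2 fold change was 0.38 (SE 0.13, edgeR adjusted p = 0.0457) in the double knockout. Leaving out 1 library ended the call of Mrpl17 (double-knockout replicate 1 or wild-type replicate 3, edgeR adjusted p 0.0619 and 0.0588), of Mrpl41 (double-knockout replicate 2 or 4, wild-type replicate 2 or 3, edgeR adjusted p 0.0546 to 0.0961) and of Mrpl30 (any library but wild-type replicate 4, edgeR adjusted p 0.0512 to 0.126). Without wild-type replicate 4 all 3 also passed in the Raptor knockout (Mrpl17 0.52, Mrpl41 0.70 and Mrpl30 0.46 on the log2 scale, edgeR adjusted p 0.00727, 0.0117 and 0.00715).

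Mrpl9, Mrpl44 and Mrpl39 passed in the Raptor knockout, with the double knockout in between. Mrpl9 (ENSMUSG00000028140, chromosome 3, 94443318 to 94451130, plus strand), with a bacterial counterpart, stood at 30.3, 25.2 and 27.6 CPM in mice lacking Raptor alone, 18.96, 28.3, 20.7 and 17.4 in the double knockout and 17.5, 21.1, 14.1 and 11.5 in the wild-type mice. It rose 1.75-fold in the Raptor knockout (log2 fold change 0.80, SE 0.21, edgeR adjusted p = 0.0155), and its log2 fold change was 0.43 (SE 0.20, edgeR adjusted p = 0.13) in the double knockout. Mrpl44 (ENSMUSG00000026248, chromosome 1, 79776018 to 79781445, plus strand), a mitochondria-specific protein related to double-stranded RNA nucleases, stood at 28.7, 27.3 and 26.4 CPM in mice lacking Raptor alone, 17.7, 28.8, 19.3 and 18.6 in the double knockout and 16.3, 19.3, 18.3 and 12.8 in the wild-type mice. It rose 1.65-fold in the Raptor knockout (log2 fold change 0.72, SE 0.20, edgeR adjusted p = 0.017), and in the double knockout, where its log2 fold change was 0.35 (SE 0.19, edgeR adjusted p = 0.187), replicate 2 alone reached that level. Mrpl39 (ENSMUSG00000022889, chromosome 16, 84717576 to 84735742, minus strand), also specific to mitochondria, stood at 28.7, 20.8 and 27.9 CPM in mice lacking Raptor alone, 21.5, 22.9, 23.6 and 22.1 in the double knockout and 16.3, 17.9, 17.6 and 19.6 in the wild-type mice. Its log2 fold change was 0.53 (SE 0.16, edgeR adjusted p = 0.0315) in the Raptor and 0.34 (SE 0.15, edgeR adjusted p = 0.116) in the double knockout, with no overlap with wild type in either. Double knockout and Raptor knockout did not differ by the test for Mrpl9 (log2 fold change -0.37, SE 0.21, edgeR adjusted p = 0.61), Mrpl44 (-0.38, SE 0.20, edgeR adjusted p = 0.569) or Mrpl39 (-0.20, SE 0.16, edgeR adjusted p = 0.758), so the calls do not show that they respond in the Raptor knockout alone. Without Raptor-knockout replicate 1 the calls of Mrpl9 (edgeR adjusted p = 0.077) and Mrpl44 (0.0714) ended, and that of Mrpl39 ended without Raptor-knockout replicate 1 or 3 or wild-type replicate 1 or 3 (0.0672 to 0.154). In the libraries without Xist those of Mrpl9 and Mrpl39 ended and that of Mrpl44 stood (log2 fold changes 0.71, 0.49 and 0.75). Mrpl44 overlaps Wdfy1 on the opposite strand, which had 264 counts against 896 of Mrpl44 over all libraries and a log2 fold change of 0.85 (SE 0.39, edgeR adjusted p = 0.145) in the Raptor knockout.

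Mrpl36 and Mrpl34, both large-subunit proteins with a bacterial counterpart, were the large-subunit genes that fell. Mrpl36 (ENSMUSG00000021607, chromosome 13, 73328513 to 73332178, plus strand) stood at 26.2, 35.8, 33.1 and 45.5 CPM in the wild-type mice, 23.3, 15.4 and 22.02 in those lacking Raptor alone and 18.96, 18.9, 16.4 and 21.2 in the double knockout. The highest knockout library was below the lowest wild-type library. Mrpl36 was 1.73-fold lower in the Raptor knockout (log2 fold change -0.79, SE 0.20, edgeR adjusted p = 0.0128) and 1.86-fold lower in the double knockout (log2 fold change -0.90, SE 0.19, edgeR adjusted p = 0.00211). Its call in the Raptor knockout ended without Raptor-knockout replicate 2 (log2 fold change -0.63, edgeR adjusted p = 0.0575). That call also ended in the libraries without Xist (log2 fold change -0.86). Mrpl36 overlaps Ndufs6 on the opposite strand, a subunit gene of respiratory complex I with 10150 counts over all libraries against 1105 of Mrpl36. The labels do not say whether counting used strand, and Ndufs6 had log2 fold changes of -0.19 (SE 0.15, edgeR adjusted p = 0.401) and -0.20 (SE 0.14, edgeR adjusted p = 0.294). Mrpl34 (ENSMUSG00000034880, chromosome 8, 71464959 to 71465747, plus strand) stood at 44.9, 51.8, 43.4 and 87.5 CPM in the wild-type mice, 34.9, 36.5 and 43.1 in those lacking Raptor alone and 36.03, 39.1, 43.2 and 35.5 in the double knockout. Every knockout library lay below wild type, by a small gap, and wild-type replicate 4 was far above the other wild-type libraries. The log2 fold change in the double knockout was -0.56 (SE 0.20, edgeR adjusted p = 0.0478) and became -0.27 (edgeR adjusted p = 0.13) without that library. Its call also ended without wild-type replicate 2 or any 1 of the 7 knockout libraries (edgeR adjusted p 0.0511 to 0.113).

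**Figure D2:**
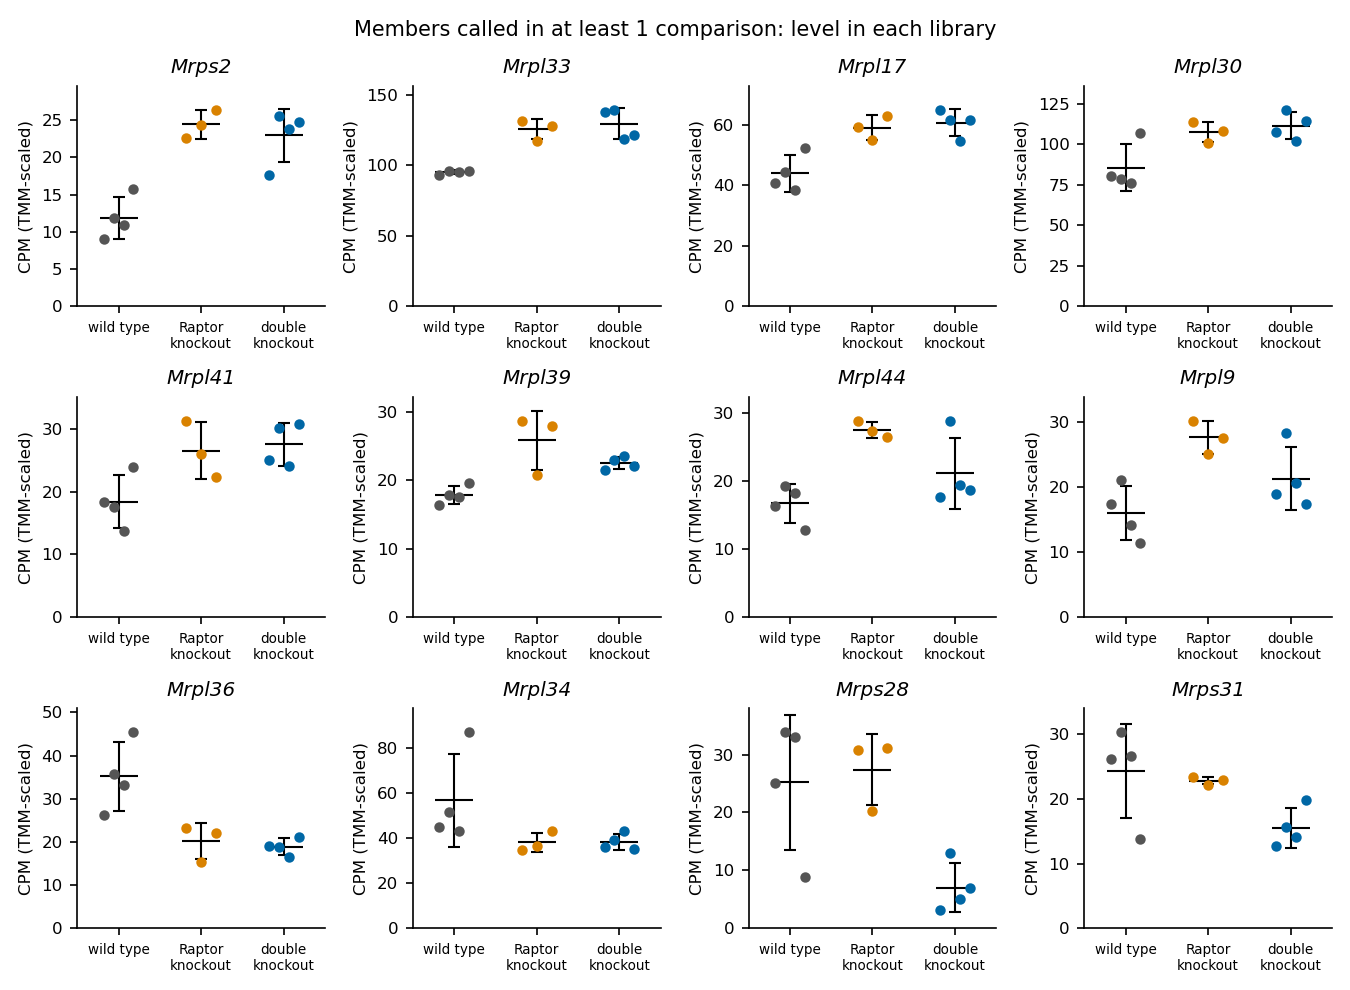
TMM-scaled CPM of the 12 members called in at least 1 comparison, 1 panel per gene, with each library as a point and the mean and SD as bars (4, 3 and 4 libraries in the order wild type, Raptor knockout, double knockout, replicates from left to right). Mrps2 and Mrpl33 are above wild type and Mrpl36 is below it in every knockout library, and the last wild-type point lies away from the others in Mrpl30, Mrpl34, Mrps28 and Mrps31.

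The other 65 tested members were called in no comparison of the main test. Some passed in an alternative. Without wild-type replicate 4, Mrpl1 fell in the Raptor knockout and Mrpl52 rose in the double knockout (edgeR adjusted p 0.0186 and 0.0303). In the double knockout Mrps21 fell without wild-type replicate 1 and Mrpl16 without wild-type replicate 3 (edgeR adjusted p 0.0347 and 0.0457). Mrpl42 fell there without double-knockout replicate 4 (edgeR adjusted p = 0.04995) and by DESeq2. Mrps21, the most abundant member, stood at 277, 303, 343 and 424 CPM in the wild-type mice, 253, 257 and 277 in those lacking Raptor alone and 266, 262, 238 and 292 in the double knockout. The group ranges overlapped, with log2 fold changes of -0.36 (SE 0.15, edgeR adjusted p = 0.0991) and -0.35 (SE 0.13, edgeR adjusted p = 0.0653). Mrpl42, the second in abundance, stood at 211, 211, 209 and 245 CPM in the wild-type mice and 163, 186, 163 and 198 in the double knockout, below wild type without overlap, with a log2 fold change of -0.30 (SE 0.12, edgeR adjusted p = 0.0646). Mrpl52, a mitochondria-specific large-subunit protein, stood at 51.8, 63.3, 47.9 and 65.6 CPM in the wild-type mice and 80.6, 76.5, 58.8 and 77.6 in the double knockout, with a log2 fold change of 0.36 (SE 0.15, edgeR adjusted p = 0.0902). Mrpl1, a large-subunit protein with a bacterial counterpart, stood at 17.7, 15.02, 16.3 and 10.4 CPM in the wild-type mice and 10.3, 10.3 and 9.39 in those lacking Raptor alone, just below wild type without overlap, with a log2 fold change of -0.57 (SE 0.23, edgeR adjusted p = 0.0958). Mrpl16, also with a bacterial counterpart, had wild-type libraries at 42.1, 46.1, 35.9 and 92.2 CPM, and its log2 fold changes of -0.48 (SE 0.26) and -0.47 (SE 0.24) rested on the last of them. Mrpl22 and Mrpl2, proteins of the large subunit with bacterial counterparts, had log2 fold changes of -0.37 (SE 0.19, edgeR adjusted p = 0.164) and -0.35 (SE 0.16, edgeR adjusted p = 0.115) in the double knockout. Counted by ranges alone, 7 members lay above and 4 below wild type without overlap in the double knockout (14.3%, beside 26.8% of all tested genes), and 11 above and 5 below in the Raptor knockout (20.8%, beside 27.3%).

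Double knockout and Raptor knockout were close to each other. No member was called by edgeR, beside 0.0286% of all tested genes (3 genes, 0.00952% higher and 0.019% lower), and 3 members had an unadjusted p under 0.05, beside 9.49% of all tested genes (5.14% lower). The 3 were Mrps28, Mrpl32 and Mrps31, each lower in the double knockout. DESeq2 called 1 member, Mrps28, as lower (log2 fold change -1.95, DESeq2 adjusted p = 0.004), and so did edgeR without wild-type replicate 4 (edgeR adjusted p = 0.0339) and in a fit of these 7 libraries alone (edgeR adjusted p = 0.0422). Without the smaller run the log2 fold change of Mrps28 was -1.73 (edgeR adjusted p = 0.547). Mrpl32, a large-subunit protein with a bacterial counterpart that is cut by a mitochondrial protease before it joins the ribosome, stood at 32.8, 27.9 and 30.2 CPM in mice lacking Raptor alone and 16.4, 23.97, 16.7 and 18.3 in the double knockout. The 2 groups did not overlap, with a log2 fold change of -0.68 (SE 0.23, edgeR adjusted p = 0.304). In wild type Mrpl32 stood at 25.5, 25.4, 24.7 and 12.4 CPM, with replicate 4 below every double-knockout library. Mrps31 had a log2 fold change of -0.55 (SE 0.24, edgeR adjusted p = 0.464). On the other side, the largest positive log2 fold changes were 0.29 (SE 0.16) for Mrpl48, 0.29 (SE 0.23) for Mrps22 and 0.27 (SE 0.23) for Mrpl1, all with overlapping groups. Of the 77 members, 6 lay below and 0 above without overlap (7.79%, beside 12.2% of all tested genes, 7.03% below). The log2 fold change was within 0.5 of 0 for 74 of 77 (96.1%, all tested genes 84.2%), and the median was -0.05 (all tested genes 0.01).

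The promoters of the called members were read for motifs of factors known to act on nuclear genes for mitochondria. NRF1, GABP, ESRRA and YY1 are such factors, and the E-box is bound by MYC and related proteins. The window was the 250 bases before the gene start given by RefSeq (GRCm38.p6), and 69 of the 78 members had an entry. The letters searched on both strands were GCGCATG for NRF1, CCGGAAG for GABP, AAGGTCA for ESRRA, AAGATGG for YY1 and CACGTG for the E-box. The NRF1 letters stood in 11.6% of the 69 members, in 3.68% of all 27025 genes with such a window and in 6.99% of the 8031 tested genes that had one. The GABP letters stood in 26.1%, 7.83% and 16.4%, the ESRRA letters in 4.35%, 4.7% and 3.49%, the YY1 letters in 8.7%, 5.18% and 5.18%, and the E-box in 7.25%, 6.86% and 10.3%. Of the 11 called members with a window, 4 held the NRF1 letters (Mrpl17, Mrpl33, Mrpl9 and Mrpl39), against 4 of 57 uncalled tested members. Each of these 4 called members rose in at least 1 knockout. The GABP letters went the other way, in 2 of the 11 called and 16 of the 57 uncalled members. The ESRRA, YY1 and E-box letters each stood in 1 of the 11, and in 2, 5 and 4 of the 57. No test was made of these shares. The windows of 3 of them are printed 5′ to 3′ with motif letters in capitals, to show where the letters stand, and that of Mrps2 beside them, since Mrps2 rose most and its window holds none of the 5 motifs.
Mrps2: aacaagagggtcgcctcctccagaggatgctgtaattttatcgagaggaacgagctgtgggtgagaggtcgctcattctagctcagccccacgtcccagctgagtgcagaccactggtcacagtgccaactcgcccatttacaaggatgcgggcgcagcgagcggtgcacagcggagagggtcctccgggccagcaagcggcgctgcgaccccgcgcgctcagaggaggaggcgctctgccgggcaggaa
Mrpl17: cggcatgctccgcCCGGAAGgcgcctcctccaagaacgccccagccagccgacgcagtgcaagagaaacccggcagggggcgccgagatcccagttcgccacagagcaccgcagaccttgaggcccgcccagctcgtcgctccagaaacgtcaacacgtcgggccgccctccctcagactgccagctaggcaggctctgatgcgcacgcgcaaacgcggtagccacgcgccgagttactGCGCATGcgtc
Mrpl33: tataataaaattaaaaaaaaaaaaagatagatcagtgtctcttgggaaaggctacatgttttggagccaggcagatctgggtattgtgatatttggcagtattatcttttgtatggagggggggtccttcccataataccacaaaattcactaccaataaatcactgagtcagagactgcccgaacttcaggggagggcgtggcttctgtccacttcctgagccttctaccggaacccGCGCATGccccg
Mrpl9: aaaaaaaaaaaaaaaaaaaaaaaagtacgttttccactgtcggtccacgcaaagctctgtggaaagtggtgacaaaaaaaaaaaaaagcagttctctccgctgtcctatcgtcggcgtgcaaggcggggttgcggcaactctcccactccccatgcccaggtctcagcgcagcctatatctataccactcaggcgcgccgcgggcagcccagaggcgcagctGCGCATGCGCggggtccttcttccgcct
The windows are chr2:28467816-28468065, plus strand (Mrps2), chr7:105811088-105811337, minus strand (Mrpl17), chr5:31613701-31613950, plus strand (Mrpl33) and chr3:94443086-94443335, plus strand (Mrpl9). The NRF1 letters begin 11 bases before the start in Mrpl17, 12 in Mrpl33 and 28 in Mrpl9. In Mrpl17 and Mrpl33 all 7 letters lie within the last 12 bases of the window, which GENCODE M21 annotates as exon of the gene, and in Mrpl9 they lie outside its exon. In Mrpl9 the letters on the plus and minus strands overlap in a palindrome. The first capitals of Mrpl17, 237 bases before the start, are the GABP letters. In Mrpl39 an overlapping pair of NRF1 letters begins 125 bases before the RefSeq start, in a window annotated as exon over its whole length. Mrpl36, which fell, had no NRF1 letters and held ESRRA, YY1 and E-box letters, the ESRRA and E-box letters overlapping, all within the 149 bases of its window annotated as exon.

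Transcripts of these factors were measured beside the members, from a list of 9 regulators of which 8 were tested. In the double knockout 2 rose and 1 fell, and in the Raptor knockout 1 rose. Nrf1 stood at 6.21, 7.87, 7.89 and 6.99 CPM in the wild-type mice, 11.3, 11.9 and 16.4 in those lacking Raptor alone and 14.5, 14.01, 10.1 and 11.6 in the double knockout. Every knockout library was above wild type, with log2 fold changes of 0.86 (SE 0.21, edgeR adjusted p = 0.0104) and 0.79 (SE 0.20, edgeR adjusted p = 0.00838). Gabpb1, a subunit of GABP, rose in the double knockout from 1.79 ± 0.293 to 3.75 ± 1.02 CPM (log2 fold change 1.05, SE 0.32, edgeR adjusted p = 0.0251). Ppargc1a, which encodes the coactivator PGC-1α of mitochondrial genes, fell in the double knockout from 45.8 ± 1.01 to 24.5 ± 9.52 CPM (log2 fold change -0.90, SE 0.26, edgeR adjusted p = 0.017), with a log2 fold change of -0.71 (SE 0.28, edgeR adjusted p = 0.0895) in the Raptor knockout. Yy1 and Esrra were not called, at log2 fold changes of -0.05 (SE 0.14) and 0.03 (SE 0.21) in the double knockout. The call of Nrf1 ended without Raptor-knockout replicate 3 in that knockout, that of Ppargc1a without double-knockout replicate 1, and that of Gabpb1 without double-knockout replicate 1 or 3 or wild-type replicate 1. With Xist as a covariate and with both fits to TPM the calls of Ppargc1a and Gabpb1 ended too. Gabpb1 lost its call under 11 of 22 alternatives, among them DESeq2, the run as a covariate and the smaller run left out. These levels do not show what the factors did at the promoters.

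Summed over genes, the members gave 3272 to 4284 CPM in wild type, 3494 to 3779 in the Raptor knockout and 3347 to 3760 in the double knockout, and the ranges overlapped. The 4284 CPM was wild-type replicate 4. The other wild-type libraries gave 3272 to 3518.5 CPM, which still overlapped with both knockouts. The large-subunit sum was 2412 ± 309 CPM in wild type, 2508 ± 113 without Raptor alone and 2436 ± 149 without Raptor and mTOR. It was 2856 CPM in wild-type replicate 4 and 2141 to 2351 in the other wild-type libraries. Those others lay below the Raptor knockout (2378 to 2575) and overlapped with the double knockout (2301 to 2591). The small-subunit sum was 1133 ± 132, 1088 ± 43.7 and 1050 ± 54.4 CPM. As a share of unscaled counts, the members made up 0.371% in wild-type replicate 4 and 0.306% to 0.314% in the other wild-type libraries. That share was 0.357% to 0.397% in the Raptor knockout and 0.357% to 0.391% in the double knockout. The ratio of large to small subunit was 2.003 to 2.21 in wild type and higher without overlap in the Raptor knockout (2.29 to 2.33) and the double knockout (2.25 to 2.36). That separation rested on Mrps21, which supplied the most counts of any member. Without Mrps21 the ratio was 2.95 to 3.16, 2.97 to 3.103 and 3.04 to 3.22, and the groups overlapped.

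The proteins of the cytosolic ribosome gave another picture in the same libraries. Of 81 tested genes for them, 73 rose in the double knockout and 65 in the Raptor knockout, 0 fell, and their median log2 fold changes were 0.93 and 0.67. Their sum stood at 25820 to 30707 CPM in wild type, 44249 to 46534 in the Raptor knockout and 48615 to 58462 in the double knockout. Per CPM of mitochondrial ribosomal protein transcript there were 7.02 to 9.39 CPM of cytosolic ribosomal protein transcript in wild type, 12.1 to 12.7 in the Raptor knockout and 14.1 to 15.8 in the double knockout, so that no group overlapped with another. The mitochondrially encoded mRNAs, which mitochondrial ribosomes translate, were lower relative to the members in the knockouts. For each CPM of member transcript they stood at 74.2 to 84.95 CPM in wild type, 63.0 to 66.7 in the Raptor knockout and 52.1 to 64.7 in the double knockout, and both knockouts lay below wild type.

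**Figure D3:**
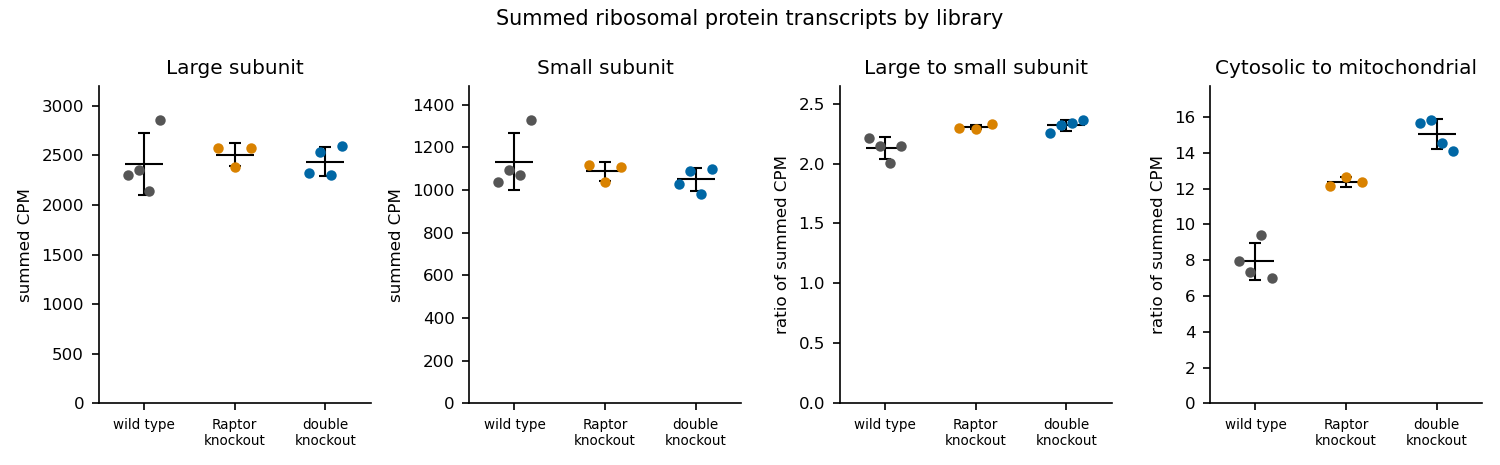
Summed TMM-scaled CPM of large-subunit and small-subunit mitochondrial ribosomal proteins, their ratio, and the ratio of cytosolic to mitochondrial ribosomal proteins, with each library as a point and the mean and SD as bars (n = 4, 3 and 4). The sums overlap between groups, for the large subunit against the Raptor knockout through wild-type replicate 4 alone. The cytosolic to mitochondrial ratio is 7.02 to 9.39 in wild type and above 12 in every knockout library.

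The rest of the machinery for mitochondrial translation was followed by fixed lists. The 5 tested mitochondrial ribosomal proteins with other symbols were not called in any comparison, among them Chchd1, a small-subunit protein at 162 ± 22.2 CPM in wild type and 189.6 ± 11.9 in the double knockout (log2 fold change 0.23, SE 0.12, edgeR adjusted p = 0.19). Of 24 genes for ribosome assembly and ribosomal RNA modification, 1 rose and 5 fell in the double knockout and none was called in the Raptor knockout. Rpusd4, a pseudouridine synthase that acts on mitochondrial RNA, rose (log2 fold change 0.85, SE 0.26, edgeR adjusted p = 0.024). Among those that fell were Mterf3 (log2 fold change -1.55, SE 0.45, edgeR adjusted p = 0.0169), a factor of mitochondrial transcription and large-subunit assembly, Malsu1 (-0.44, SE 0.13, edgeR adjusted p = 0.0234), a large-subunit assembly factor, and Rbfa (-0.65, SE 0.20, edgeR adjusted p = 0.0259), a small-subunit assembly factor. Each of these 4 calls ended when 1 library was left out. That was wild-type replicate 2 or double-knockout replicate 2 for Rpusd4 and Mterf3, and double-knockout replicate 2 or 3 for Malsu1. For Rbfa it was double-knockout replicate 1, 3 or 4 or wild-type replicate 4. With Xist as a covariate the calls of Rpusd4, Malsu1 and Rbfa ended, and with library totals those of Malsu1 and Rbfa. Without the smaller run the calls of Rpusd4, Malsu1 and Rbfa ended, and with the run as a covariate those of Malsu1 and Rbfa. That of Mterf3 ended with both fits to TPM. Mterf3 had only 3, 2, 5 and 6 counts in the double knockout and 14, 15, 23 and 7 in wild type. Its wild-type replicate 4, at 1.58 CPM, lay inside the double-knockout range of 0.539 to 1.74 CPM.

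Of 14 tested translation factors and mRNA-binding proteins, 1 rose and 2 fell in the double knockout and 1 rose in the Raptor knockout. Oxa1l, which inserts newly made proteins into the inner membrane and binds the mitochondrial ribosome, stood at 30.1, 27.2, 22.9 and 30.9 CPM in the wild-type mice, 44.9, 45.5 and 41.4 in those lacking Raptor alone and 45.8, 51.7, 43.2 and 54.9 in the double knockout. It rose without overlap in both (log2 fold change 0.66, SE 0.15, edgeR adjusted p = 0.00693, and 0.82, SE 0.14, edgeR adjusted p = 0.000558). Letm1, an inner membrane protein of ion exchange that also binds these ribosomes, fell in the double knockout (log2 fold change -0.57, SE 0.16, edgeR adjusted p = 0.0152), as did Gfm2, a ribosome recycling factor (-0.45, SE 0.15, edgeR adjusted p = 0.0384). Of 16 mitochondrial aminoacyl-tRNA synthetases, which charge tRNAs, 1 rose in each knockout and none fell. That was Nars2, the asparagine enzyme, at 3.15 ± 1.42 CPM in wild type, 6.46 ± 1.92 without Raptor alone and 6.13 ± 1.19 in the double knockout (log2 fold change 1.10, SE 0.34, edgeR adjusted p = 0.0341, and 1.02, SE 0.32, edgeR adjusted p = 0.0272). Leaving out 1 library ended the call of Letm1 (double-knockout replicate 2), that of Gfm2 (7 of the 11 libraries) and that of Nars2 (5 libraries in the Raptor knockout, 4 in the double knockout, wild-type replicates 3 and 4 in both). With library totals, both fits to TPM and Xist as a covariate the calls of Letm1 and Gfm2 ended. Gfm2 lost its call under 16 of 22 alternatives, among them the run as a covariate and the smaller run left out. That of Nars2 ended without the smaller run in both knockouts.

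Of 15 mitochondrially encoded genes, 6 fell in the double knockout and 1 in the Raptor knockout, and none rose. mt-Nd2, a complex I subunit, fell in both, from 33242 ± 7688 CPM in wild type to 19982 ± 3930 without Raptor (log2 fold change -0.73, SE 0.23, edgeR adjusted p = 0.0386) and 17305 ± 4785 without Raptor and mTOR (-0.94, SE 0.21, edgeR adjusted p = 0.00436). Of 7 genes for mitochondrial DNA transcription and copy number, Tfb2m, a factor that starts transcription of mitochondrial DNA, fell in both (log2 fold change -0.76, SE 0.21, edgeR adjusted p = 0.0189, and -1.03, SE 0.19, edgeR adjusted p = 0.000951), and Tfam, which packages that DNA, was not called (-0.07, SE 0.16, in the double knockout). With Xist as a covariate the double-knockout calls of mt-Nd1, mt-Nd4 and mt-Cytb ended, and with library totals those of mt-Nd4 and mt-Cytb, while that of mt-Nd2 stood under 21 of 22 alternatives. The Raptor-knockout call of mt-Nd2 ended with library totals, with no filter and with both fits to TPM. In the Raptor knockout the calls of mt-Nd2 and Tfb2m also ended without wild-type replicate 1 or 2 or Raptor-knockout replicate 1 or 3. No gene of these lists was called between double knockout and Raptor knockout. The lists are read against the 26.7% and 18.2% of all tested genes called in the comparisons with wild type.

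**Figure D4:**
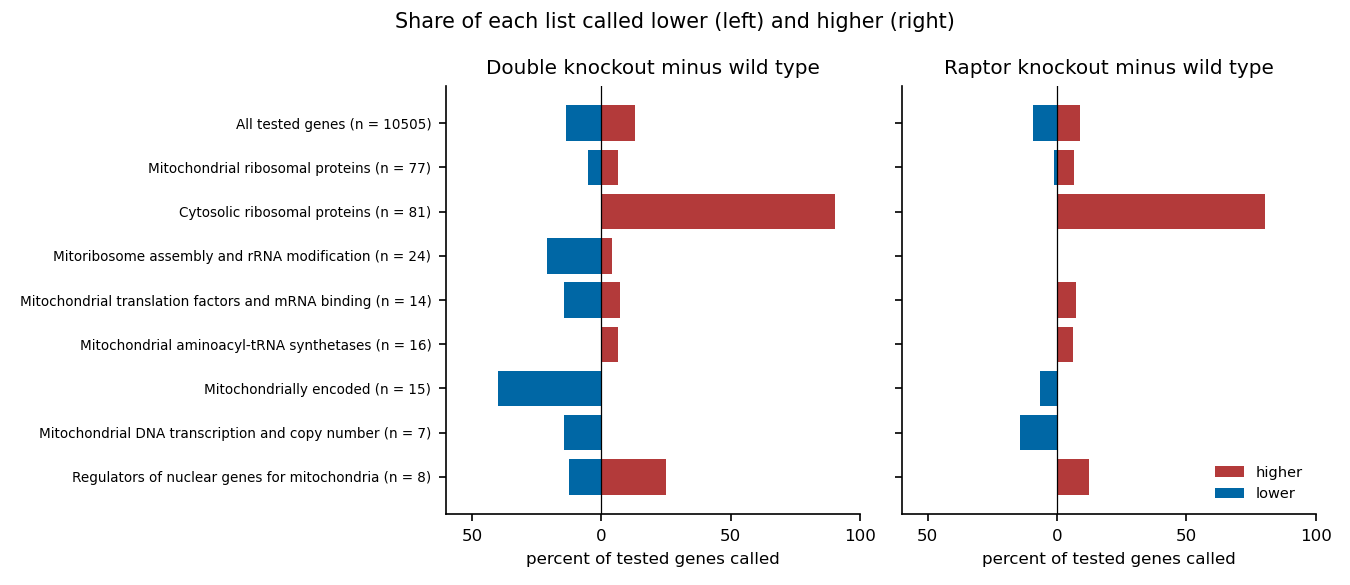
Share of tested genes called lower (left of 0) and higher (right of 0) by edgeR in each list, in percent of the tested genes, with all tested genes at the top and the number tested in brackets. The bar of the cytosolic ribosomal proteins reaches 90.1% higher in the double knockout, and the bars of the mitochondrial ribosomal proteins are shorter than those of all tested genes in both directions and both comparisons.

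Mrpl23, a large-subunit protein with a bacterial counterpart that lies near the tunnel exit, was the member that the low-count filter removed. Mrpl23 (ENSMUSG00000037772, chromosome 7, 142532686 to 142540747, plus strand) held 0 to 19 counts per library, while its processed pseudogene Mrpl23-ps1 (chromosome 2, 74591330 to 74591909, minus strand) held 260 to 586. The transcript Mrpl23-201 and the pseudogene matched over 540 aligned bases with 0 mismatches, up to 2 bases from the end of the transcript. Reads from the 3′ end of the gene cannot be told from the copy by sequence, so the counts of both are uncertain, and no difference is given for Mrpl23. The pseudogene's level was 94.6 ± 6.15 CPM in wild type, 97.8 ± 11.9 without Raptor alone and 100.2 ± 8.07 in the double knockout, with log2 fold changes of 0.05 (SE 0.13, edgeR adjusted p = 0.846) and 0.08 (SE 0.12, edgeR adjusted p = 0.661). Of the 78 members, 19 overlap another annotated gene with more than 50 counts, so that reads could be shared. In 4 of them (Mrpl3, Mrps24, Mrps34 and Mrps6) such a gene lies on the same strand, where counting by strand would not separate the reads.

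**Figure D5:**
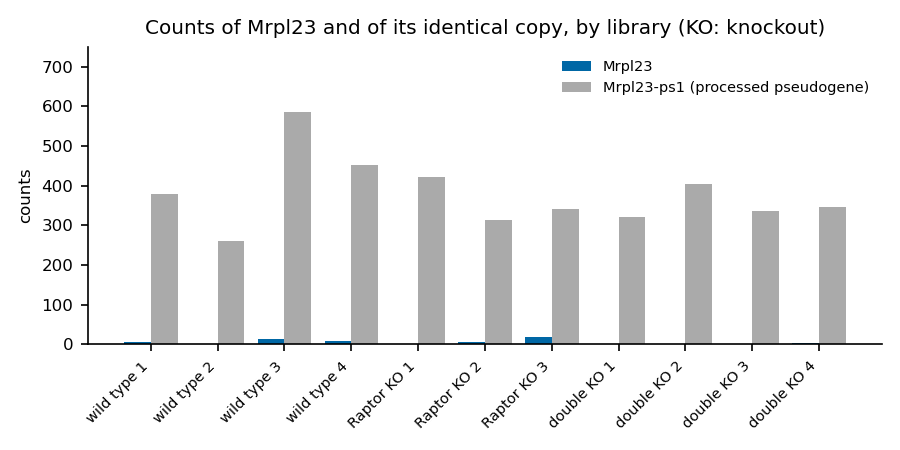
Counts of Mrpl23 and of its processed pseudogene Mrpl23-ps1 in each of the 11 libraries, as bars from 0. The gene has 0 to 19 counts and the pseudogene 260 to 586 in every library.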

How the data were processed

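RNA of 11 gastrocnemius muscles was read by QuantSeq 3' mRNA FWD. The deposited tables hold expected counts and TPM per gene, as the authors made them. The submitters' processing notes name RSEM 1.3.3, STAR 2.7.0, fastp 0.20.0 and the build GRCm38 (mm10). They give neither the strand setting nor the annotation release. In the deposited expected counts 2.249% of values were not whole, and all were rounded. A further 6 columns matched no sample and were not used. Gene positions and biotypes came from GENCODE M21 and promoters from RefSeq GRCm38.p6.

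Counts were filtered with filterByExpr, scaled by TMM and fitted over 3 groups with the two-sided edgeR 4.0.16 quasi-likelihood test in R 4.3.3, with 8 residual degrees of freedom and Benjamini-Hochberg adjustment over 10505 genes. These genes held 99.54% of counts, and the biological coefficient of variation was 20.65%. limma 3.58.1 (log2 of TPM plus a pseudocount of 1 or 0.1) and DESeq2 1.42.0 served as alternatives, with other scalings, no filter, run and Xist terms, subsets, and each library left out. The scripts were tested on simulated data. Replicates are numbered in the order of the sample records. The labels do not say that each library is a separate animal, so p-values measure the spread between these samples. Named genes are Rptor, Mtor, each called member, the 3 highest and 3 lowest members in TPM, the 3 largest uncalled changes each way per comparison, and up to 4 called genes per other list (where none passed, the 2 of highest level). Mrpl23-ps1, Ndufs6 and Wdfy1 were added after their values were seen. The members and lists were chosen with earlier results of these data known.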

Additional observations from a re-analysis of the deposited data

Results flagged for a closer look

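In groups of 4 libraries, a library was singled out where its gap to the nearest other library, relative to the group's range, passed Dixon's critical value. Of 60 such tests 4 passed, and chance gives about 1 in 20. In wild type, replicate 4 was high for Mrpl30 (107 CPM, others 76.2 to 80.3) and Mrpl42 (245 CPM, others 209 to 211), and low for Mrpl32 (12.4 CPM, others 24.7 to 25.5). In the double knockout, replicate 2 was high for Mrpl44 (28.8 CPM, others 17.7 to 19.3).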

How the results depend on the processing

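No called value changed sign under the 22 alternatives. Under them a called or uncalled verdict stayed for 983 gene and setting pairs of the double knockout against wild type, was lost for 162 and gained for 20. In the Raptor knockout the numbers were 1076, 52 and 37, and between the knockouts 1156, 0 and 9. Scaled to library totals, 18 members were higher and 2 lower in the double knockout (26%, beside 31.1% of all tested genes, median log2 fold change 0.26). In the Raptor knockout 14 were higher and 1 lower (19.5%, beside 21%, median 0.28). With limma on TPM, 14 were higher and 2 lower in the double knockout (median 0.17 with a pseudocount of 1, 0.18 with 0.1). That is 20.5% of members under both, beside 24.6% and 24.2% of all tested genes. In the Raptor knockout 11 were higher and 1 lower under both, 15.4% of members beside 15% and 14.8% of all tested genes. There 1031 and 1025 of 10342 tested genes were higher, a smaller share than the 11 of 78 members. A pseudocount of 1 called 1 gene between the knockouts. Without the filter, 2 members were higher and 4 lower in the double knockout (7.69%, beside 13% of all tested genes). In the Raptor knockout 3 were higher and 2 lower (6.41%, beside 9.01%), and 105 genes were called between the knockouts. With the run as a covariate, 3 were higher and 1 lower in the double knockout (5.19%, beside 20.2% of all tested genes). Without the smaller run 2 were higher and 1 lower there (3.9%, beside 17.8%). With Xist as a covariate, 4 were higher and 2 lower in the double knockout (7.79%, beside 17.8% of all tested genes). Between the knockouts 0 genes were called in that setting, and the members' median was 0.088. In the 7 libraries without Xist, where the 1 double-knockout library is assumed to vary like the other groups, 472 genes and 0 members higher or lower were called in the double knockout, 1265 genes with 2 members higher and 0 lower in the Raptor knockout, and 0 genes between the knockouts. Fitted on only the 2 groups compared, 4 members were higher and 2 lower in the double knockout (7.79%, beside 25.7% of all tested genes). In the Raptor knockout 3 were higher and 1 lower (5.19%, beside 14.1%). Between the knockouts 157 genes were called, with 1 member lower (1.3%, beside 1.55%). DESeq2 called 88 genes there and 1 member lower. The causes of these differences were not tested. Leaving out each library in turn gave 2160 to 3344 genes in the double knockout (2 to 10 members higher, 2 to 5 lower), 1140 to 2413 in the Raptor knockout (1 to 12 higher, 0 to 2 lower) and 0 to 97 between the knockouts (0 to 1 member lower, 0 higher). The members' median then ran from -0.04 to 0.11, -0.01 to 0.16 and -0.09 to -0.02. No paired analysis was possible because the replicate numbers only follow the order of the sample records. Low counts limit Mrpl23, and the 3 Raptor-knockout libraries limit both comparisons that use them.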
